A study of Mus musculus with 9 samples.

Results

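The comparison described here sets chromatin that is open in endothelial cells of the infant mouse lung against chromatin that is open in the same cell type in young adults. It uses the 3 infant and the 3 young adult libraries, 6 of the 9 libraries in the series, and the 3 mature adult libraries are given beside them as a later age. Lung cells were sorted by fluorescence as endothelial cells and profiled by ATAC-seq, whose Tn5 transposase inserts adapters where chromatin is accessible. The labels give the age class of each library and no age in days, strain, sex, genotype or treatment, and they do not name the surface markers of the sort or state whether different animals gave the 3 libraries of each age. The p-values below therefore measure the spread between these libraries, which may be technical. For every library the data are a list of peaks (intervals called open), without heights or read numbers. Sequencing depth is unknown, so a stretch without a peak was not called open, which is not the same as closed.

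The infant lung is still building its capillary bed. Its endothelial cells sprout, divide and lay down a basement membrane while alveoli form, and VEGF, Notch, Wnt and TGF-beta signals between the endothelium and the neighbouring fibroblasts and pericytes steer that growth. In the adult the same vessels are largely quiescent, held stable by junctions, Tie2 signalling and blood flow, and their capillaries fall into aerocytes, which face the air for gas exchange, and general capillary cells. Peaks near start sites mark promoters, which many cell types share, while peaks inside and between genes often mark enhancers, which differ more between cell types and ages.

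The label was checked against marker genes. The 10 endothelial marker genes Pecam1, Cdh5, Kdr, Tek, Tie1, Erg, Emcn, Cldn5, Esam and Egfl7 together held 217, 217 and 204 peaks in the infant libraries and 193, 196 and 178 in the young adult libraries, and each of them had a peak. That does not single out endothelium, since 13 of 14 fibroblast markers, for example, also had a peak, with 77, 73 and 76 in infants and 42, 39 and 48 in young adults. Fewer peaks were called in young adults. The infant lists held 94646, 90043 and 88856 peaks and the young adult lists 67850, 68366 and 67550, so the ages did not overlap (infant to young adult ratio 1.34, two-sided exact permutation p = 0.100, the lowest that the 20 splits of 3 against 3 allow). Young adult replicate 3 stood apart from the other young adult libraries, with a mean peak width of 487 bp against 537 and 541 bp and with 9.48% of its peaks further than 100 kb from a protein-coding gene against 6.41% in each of the others. Results that change without it are marked as such.

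The loss of peaks was small at promoters and large away from genes. Within 1 kb of an annotated start site there were 11910 ± 226 peaks in infant libraries (mean ± SD, n = 3) and 10985 ± 118 in young adult libraries, a ratio of 1.08. Outside genes, at 10 to 100 kb from the nearest gene end, there were 17250 ± 747 and 11747 ± 199 peaks, a ratio of 1.47. Peaks inside gene bodies lay between, with 53382 ± 1860 and 40833 ± 1224 and a ratio of 1.31. For each of these 3 classes the infant and young adult libraries did not overlap (exact permutation p = 0.100 each). No start site was listed on chromosome 18, so its peaks are left out of the start-site shares that follow. Start-site peaks made up 13.6 ± 0.67% of infant and 16.8 ± 0.10% of young adult peaks (exact permutation p = 0.100, adjusted over 6 classes 0.15). When every list was cut to its 59793 widest peaks, the length of the shortest of the 9 lists, that share was 17.97% in infants and 17.98% in young adults (exact permutation p = 1.0).

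**Figure D1:**
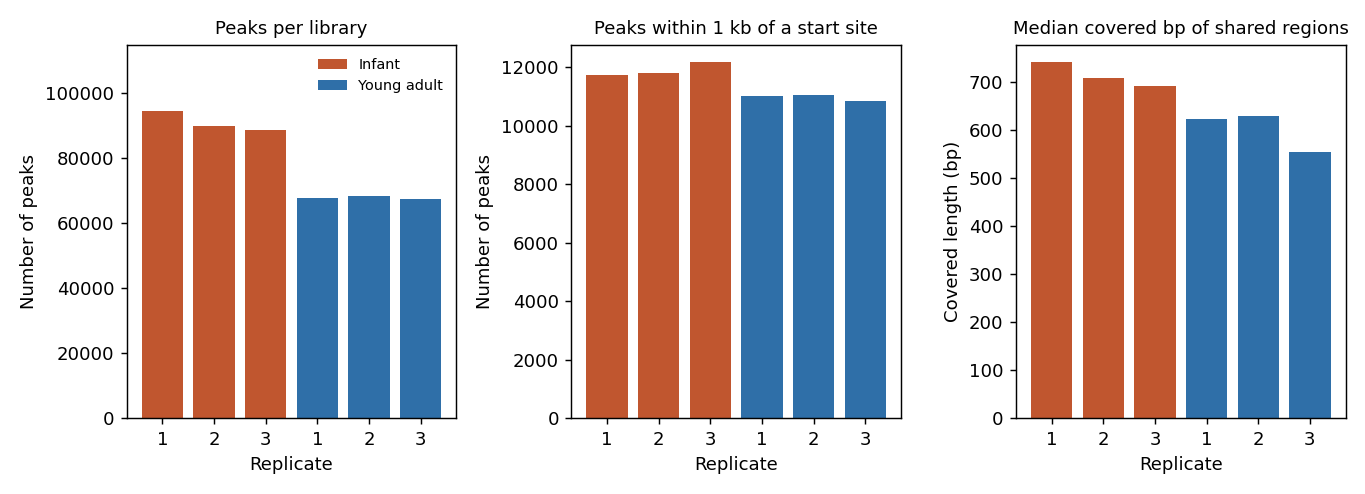
Bars give, for each of the 3 infant and 3 young adult libraries, the number of peaks, the number of peaks within 1 kb of a start site, and the median covered length in bp of the 46590 regions open in all 6 libraries. The total number falls from between 88856 and 94646 to between 67550 and 68366, the start-site number changes little, and the shared regions are narrower in young adults.

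Overlapping peaks of the 6 libraries (1 bp or more) gave 118265 merged regions. Of these, 46590 were open in all 6 libraries. A further 13493 regions, 11.4%, had a peak in each infant library and none in young adults, and 1471 regions, 1.24%, showed the reverse. Of the infant regions 91.3% had no mature adult peak, and 89.4% of the young adult regions had a peak in at least 1 mature adult library. With lists cut to equal length the numbers were 6642 and 4240, a smaller imbalance. Without young adult replicate 3 the young adult regions numbered 2268. Both kinds of region lay mostly away from listed start sites, with 4.8% of the infant and 2.0% of the young adult regions within 1 kb of one, against 20.7% of the regions open in all 6 libraries. Chromosome 18, without listed start sites, is left out of these shares, and promoters of other unlisted genes count as away from start sites.

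**Figure D2:**
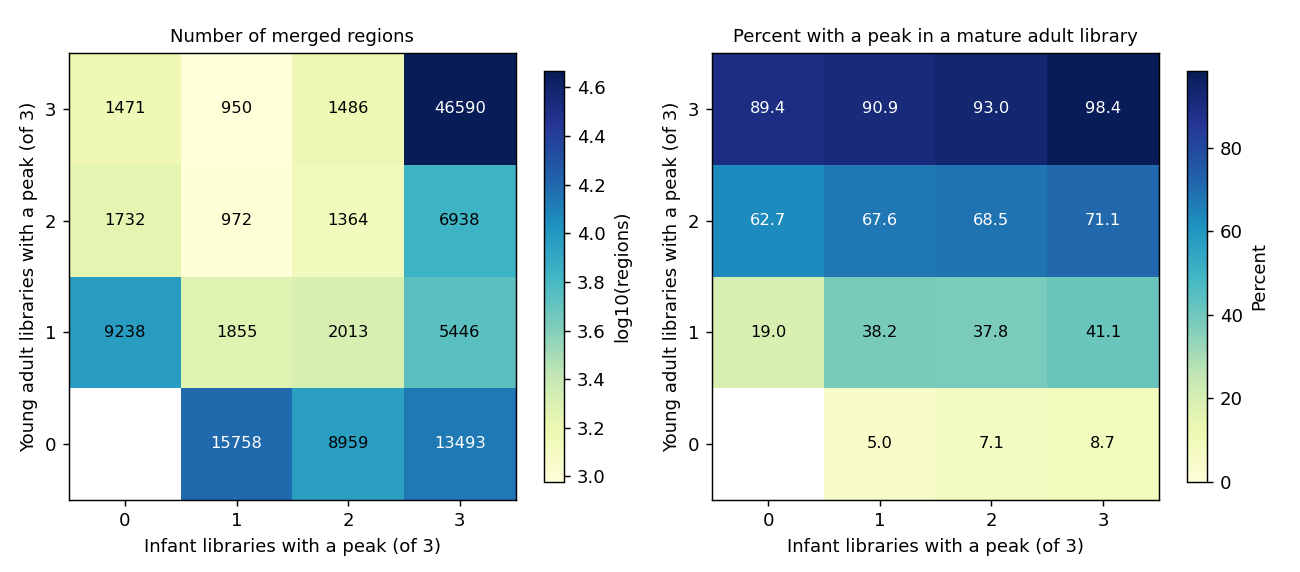
The left panel counts merged regions by the number of infant libraries (x axis) and young adult libraries (y axis) that have a peak in them, coloured by log10 of the number, and the right panel gives the percent of those regions with a peak in at least 1 mature adult library. The corner of regions open in 3 infant and 0 young adult libraries holds 13493 regions, of which 8.7% have a mature adult peak, and the opposite corner holds 1471, of which 89.4% do.

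The examples that follow were taken from regions at members of the gene lists described below, so wider regions exist elsewhere. An infant region inside Col13a1, which encodes a transmembrane collagen, spanned chromosome 10 from 61920004 to 61921404 (mm10) and was covered over 1308, 1295 and 1114 bp in the infant libraries and not at all in the 6 adult libraries. Another lay 250 bp from an end of Sfrp1, which encodes a secreted protein that binds and blocks Wnt ligands (chromosome 8, 23411017 to 23412250), and was covered over 1233, 1176 and 1074 bp in infants. The widest of these examples lay in the fibrillin gene Fbn2 on chromosome 18, 437 bp from an end of the gene, and covered 2134, 1943 and 1835 bp. No start site was listed near the regions at Sfrp1 and Fbn2, so either may be a promoter. A region inside Plagl1, an imprinted zinc finger gene of fetal growth (chromosome 10, 13118198 to 13119794), had 1561, 1594 and 1182 bp. These 3 also lacked a peak in every adult library. In the other direction, 2 regions inside Zbtb16, which encodes the transcription factor PLZF, were open in every adult library and in no infant library, and the wider of them (chromosome 9, 48795053 to 48796077) was covered over 799, 491 and 983 bp in young adults. A region inside Rspo3, which encodes an R-spondin that strengthens Wnt signalling (chromosome 10, 29526100 to 29526835), had 497, 650 and 735 bp, and a region inside Sema5a, a semaphorin gene (chromosome 15, 32374989 to 32375669), had 656, 533 and 542 bp. Zbtb16 held 10 of the young adult regions in all. Its number of assigned peaks, 21, 20 and 21 in infants and 33, 32 and 29 in young adults, did not overlap between the ages and just missed the test for genes described below (limma adjusted p = 0.0585).

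Regions that stayed open were narrower in young adults. The median covered length of the 46590 shared regions was 740, 708 and 692 bp in infants and 623, 629 and 553 bp in young adults, without overlap (exact permutation p = 0.100). Tested region by region with limma on log2 width, as given and centred on each library's mean, 1358 regions (2.91%) passed on both scales as narrower and 431 (0.925%) as wider. These counts depended on which library was left out. Without infant replicate 1 limma called 0 regions in either direction, with 3790 narrower and 1478 wider regions at an unadjusted p under 0.05 on both scales, and without infant replicate 2 or 3 it called 69 and 282 narrower and 45 and 154 wider regions. Wider regions numbered 201 and 251 without young adult replicate 1 or 2, and narrower ones between 951 and 1600 without 1 young adult library. Within 1 kb of a start site 1.40% of the shared regions were called narrower and 0.172% wider. Further from listed start sites, again without chromosome 18, the shares were 3.30% and 1.12%.

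The regions that changed most in width, picked after their values were seen, had short peaks at one age. A region in Zfpm2, a GATA cofactor gene (chromosome 15, 40654366 to 40656364), lay 323 bp from an end of the gene. No start site was listed near it, so it may be a promoter. It was covered over 1954, 1897 and 1781 bp in infant libraries and 216, 321 and 176 bp in young adult libraries. A region 4854 bp from the nearest end of Bmp7, a bone morphogenetic protein gene (chromosome 2, 172862403 to 172863913), went from 1307, 1316 and 1225 bp to 166, 171 and 168 bp. In mature adults the region at Zfpm2 had no peak, and that at Bmp7 had 580, 643 and 888 bp. At both regions the narrowest infant peak was several times as wide as the widest young adult peak. Among wider regions, one inside Cttnbp2nl (chromosome 3, 105019857 to 105021064) went from 180, 171 and 198 bp to 1194, 1179 and 1035 bp, and one inside Rin2, a gene of a guanine nucleotide exchange factor that acts in endothelial adhesion (chromosome 2, 145884891 to 145885881), from 245, 175 and 200 bp to 928, 933 and 856 bp.

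Promoters with a peak at 1 age alone were few. Of 17492 protein-coding genes with an annotated start site, 9597 had a peak within 1 kb of one in all 6 libraries and 6177 in none. At 449 genes, 2.57%, a start site had a peak in all 3 infant libraries and no start site had one in any young adult library. The reverse was found at 13 genes, 0.0743%. Of the 449 start sites lost, 433 were without a mature adult peak too, and of the 13 gained, 7 were open in all 3 mature adult libraries and 3 in none. With lists cut to equal length the numbers were 269 and 36. Sequences are shown for the 4 gained promoters that hold a motif described next and for the 2 lost promoters with the widest infant peaks, each as the 250 bases before the start site, 5′ to 3′ on the gene's strand, from RefSeq on GRCm38.p6 (the same build as mm10). Capitals mark, in the gained promoters, GAAA followed after any 2 bases by GAAA, the core of the interferon-stimulated response element (ISRE), and GGGCGG in the lost ones, the GC box bound by Sp factors, each on either strand.
Ifi206 (chr1:173491319-173491568, minus strand): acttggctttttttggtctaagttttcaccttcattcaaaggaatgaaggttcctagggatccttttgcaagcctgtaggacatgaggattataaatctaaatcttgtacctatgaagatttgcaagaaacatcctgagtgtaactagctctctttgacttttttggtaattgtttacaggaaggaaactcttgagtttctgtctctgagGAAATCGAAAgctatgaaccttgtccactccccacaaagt
Fcrla (chr1:170927584-170927833, minus strand): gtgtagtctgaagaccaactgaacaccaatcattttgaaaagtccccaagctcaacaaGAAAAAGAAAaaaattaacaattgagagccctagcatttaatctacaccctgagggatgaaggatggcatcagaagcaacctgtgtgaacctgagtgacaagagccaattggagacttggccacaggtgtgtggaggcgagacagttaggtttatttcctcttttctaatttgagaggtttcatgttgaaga
Gm12250 (chr11:58183593-58183842, plus strand): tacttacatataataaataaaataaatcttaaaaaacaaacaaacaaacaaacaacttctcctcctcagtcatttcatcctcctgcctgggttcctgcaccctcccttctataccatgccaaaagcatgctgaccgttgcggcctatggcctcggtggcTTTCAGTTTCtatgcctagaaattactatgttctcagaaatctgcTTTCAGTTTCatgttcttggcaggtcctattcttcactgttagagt
Isg15 (chr4:156200819-156201068, minus strand): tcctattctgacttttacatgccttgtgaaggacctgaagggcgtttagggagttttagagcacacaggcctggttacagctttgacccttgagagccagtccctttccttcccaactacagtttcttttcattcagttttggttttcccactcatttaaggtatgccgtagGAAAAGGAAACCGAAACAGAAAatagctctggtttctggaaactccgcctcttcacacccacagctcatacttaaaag
Gpr37 (chr6:25689981-25690230, minus strand): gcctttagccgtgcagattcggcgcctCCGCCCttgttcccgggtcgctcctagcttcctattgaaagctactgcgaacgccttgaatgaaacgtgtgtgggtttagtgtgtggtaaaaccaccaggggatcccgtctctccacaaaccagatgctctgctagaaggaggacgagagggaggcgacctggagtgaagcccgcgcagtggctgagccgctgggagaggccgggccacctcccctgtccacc
Spint2 (chr7:29281978-29282227, minus strand): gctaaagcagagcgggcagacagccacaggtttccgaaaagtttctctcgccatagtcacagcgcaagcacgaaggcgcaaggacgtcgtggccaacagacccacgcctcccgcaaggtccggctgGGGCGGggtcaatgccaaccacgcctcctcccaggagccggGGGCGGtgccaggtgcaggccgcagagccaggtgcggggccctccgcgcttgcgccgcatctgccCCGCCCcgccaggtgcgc

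The 13 genes with a gained promoter peak are Ifi206, Ifi209, Gm12250, Isg15, Wdfy4, Fcrla, Serpinb1b, Tlr9, Traf3ip3, Gm8369, Hpgds, Phyhd1 and Cd300e. Isg15, a ubiquitin-like protein induced by interferon, had a promoter peak of 259, 238 and 277 bp in young adult libraries, and Gm12250, a predicted gene, one of 402, 360 and 364 bp. Both had none in any infant library and one in every mature adult library. Ifi206 and Ifi209 belong to a cluster of similar interferon-inducible genes, so their peaks are uncertain. They had 608, 364 and 599 bp and 257, 309 and 479 bp in young adults. The ISRE core occurred on either strand in the 250 bases before the start site of 4 of the 13 genes, 30.8%, against 3.04% of all 17492 promoters. It was 1 of 13 motifs searched. In so few promoters others were also more frequent than in all promoters, such as the AP-1 motif TGANTCA (15.4% against 6.11%), the TEAD motif GGAATG (23.1% against 11.6%), the TATA box TATAAA (23.1% against 12.1%) and the forkhead motif TGTTTAC (7.69% against 2.56%). A young adult peak lay over the ISRE core in 3 libraries at Ifi206, Gm12250 and Isg15 and in 1 at Fcrla. A match is a description of the letters and not a bound site. The median GC content of the gained promoters was 44.8% with a median of 2 CpG, close to the 45.6% and 2 CpG of promoters open in none of the 6 libraries. GGGCGG was found in none of the 13.

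The lost promoters were richer in CpG, with a median GC content of 58.8% and 10 CpG, against 60.8% and 17 CpG for promoters open in all 6 libraries. GGGCGG was present in 50.6% of them, against 63.2% of promoters open in all 6 libraries and 12.0% of those open in none. The widest was that of Gpr37, a receptor gene, with 1617, 1479 and 1256 bp in infants. Spint2, which encodes a membrane-anchored inhibitor of serine proteases, followed with 1405, 1308 and 1349 bp, then Efs, Mdga2, Ppp1r3g, Stc2, Susd4 and Smim38. None of these 8 had a promoter peak in any adult library, while at Mdga2 young adult replicate 3 had 6 peaks elsewhere in the gene and the other young adult libraries 0. Of 600 members of the gene lists described below that have a start site in the table, 40 lost it and 1, Isg15, gained it. Among 28 Wnt pathway genes 6 lost theirs, namely Wnt2, Wnt4, Sfrp2, Dkk2, Fzd10 and Ror2, that is ligands, modulators and receptors alike. Among 15 T-box and lung mesenchyme factors 3 did (Tbx18, Foxf2 and Twist2). Among other lists, 0 of 24 cell cycle genes, 0 of 15 endothelial transcription factors and 0 of 9 junction genes lost a start site, and all of these were open in all 6 libraries. With 2.57% of all genes losing theirs, a count of 0 in lists of this size does not set them apart.

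For the test over genes, each peak was assigned to the gene that held its centre, or else to the nearest gene end within 100 kb, and the number of peaks per gene was compared with limma. A gene counts as lower or higher in young adults where the number as counted and the number scaled to the length of the list both passed a Benjamini-Hochberg adjusted p of 0.05 in the same direction, and the adjusted p given is the larger of the 2. Of 14452 genes that averaged 1 peak or more, 1338 (9.26%) were lower and 163 (1.13%) higher. The lower genes went from a median of 5.33 to 1.67 peaks and the higher genes from 2 to 3. The split depends on the scale. Numbers as counted gave 2528 lower (17.5%) and 163 higher genes, scaled numbers 1350 lower (9.34%) and 3701 higher (25.6%), and lists cut to equal length 575 lower (4.22%) and 818 higher (6%). The median log2 change of all genes tested was -0.25 as counted and 0.13 after scaling, and changes of single genes are given on both scales. The libraries of the 2 ages did not overlap at 3965 genes (27.4%) that were lower and 262 (1.81%) that were higher. The changes were small for many called genes. At least 5 peaks separated the means of 454 lower and 8 higher genes, and at most 1 peak those of 164 lower and 74 higher genes. At 232 of the lower and 80 of the higher genes the 3 libraries of each age had equal numbers, which leaves little spread and makes the adjusted p small. No young adult library had a peak at 70 of the lower genes, and no infant library at 5 of the higher genes. These genes reached the average of 1 peak only through the other ages, so their calls add no support. Of the 1338 lower genes, 1318 had fewer peaks in every mature adult library than in every infant library, as had 5150 of all genes tested. Of the 163 higher genes 104 had more in every mature adult library than in every infant library, as had 258 of all genes tested. These comparisons share the infant libraries with the test that chose the genes.

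**Figure D3:**
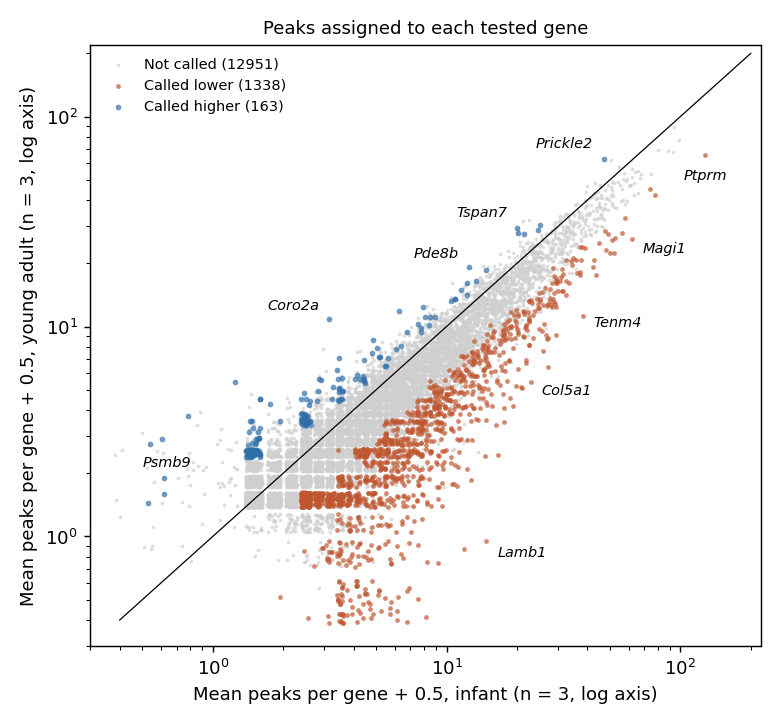
Each point is 1 of 14452 genes, placed by its mean number of peaks plus 0.5 in the 3 infant libraries (x axis) and the 3 young adult libraries (y axis), both on log axes, with a small random offset so that equal numbers do not hide each other. The 1338 genes called lower lie well below the line of equal numbers, and the 163 genes called higher lie just above it.

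The 12 genes with the largest falls were ranked by peak number, which favours long genes with many peaks. At Magi1, a scaffold of cell junctions on chromosome 6 (93675453 to 94283929), infant libraries had 66, 63 and 56 peaks and young adult libraries 25, 31 and 21. The lowest infant library exceeded the highest young adult library by 25 peaks, and the log2 change was -1.26 ± 0.14 (SE) as counted and -0.84 ± 0.12 scaled (limma adjusted p = 0.00155). Rbms3, an RNA-binding protein gene (chromosome 9, 116572746 to 117629913), went from 55, 48 and 52 to 21, 22 and 23 peaks (limma adjusted p = 0.00074). Mecom, which encodes the transcription factor Evi1 and is active in arterial endothelium (chromosome 3, 29951296 to 30509759), went from 62, 52 and 54 to 27, 28 and 27 (limma adjusted p = 0.000976). The young adult numbers of both genes lay within 2 peaks of each other and far below every infant library. Tenm4, a teneurin gene of cell adhesion, fell from 41, 35 and 37 to 8, 9 and 15 peaks and also lost its start-site peak, and young adult replicate 3 was its highest young adult library. Itga9, an integrin subunit used by lymphatic endothelium, fell from 45, 39 and 45 to 20, 16 and 15, and Wwox, a tumour suppressor gene in a fragile site, from 54, 45 and 49 to 22, 21 and 23. Cacna1c, a calcium channel gene, fell from 51, 51 and 50 to 26, 23 and 27. The remaining genes among the 12 largest falls were Ptprm, Lrmda, St6galnac3, Rora and Nfia. Ptprm, a receptor phosphatase of endothelial contacts, had the most peaks of the 12, with 129, 142 and 110 in infants and 64, 73 and 59 in young adults (limma adjusted p = 0.029). Its call was lost without infant replicate 1 or 2 or without young adult replicate 1 or 3, while the other 11 kept theirs without any single library. Magi1, Rbms3, Mecom, Wwox, Itga9 and Cacna1c were also called lower with lists cut to equal length, and the other 6 were not called.

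The 12 largest gains were smaller in peak number than the 12 largest falls. Coro2a, which encodes an actin-binding coronin (chromosome 4, 46536937 to 46601929), rose from 4, 2 and 2 to 10, 11 and 10 peaks (log2 change 1.83 ± 0.23 as counted and 2.20 ± 0.20 scaled, adjusted p = 0.00295). Pde8b, a phosphodiesterase that breaks down cyclic AMP (chromosome 13, 95024105 to 95250401), rose from 11, 12 and 13 to 19, 18 and 19 (limma adjusted p = 0.00345). Cd46, a regulator of complement (chromosome 1, 195038971 to 195098784), rose from 8, 7 and 7 to 12 in each library (limma adjusted p = 0.000325). In all 3 genes every young adult library lay above every infant library by at least 4 peaks, and the mature adult libraries were as high or higher. Mospd2 rose from 6, 5 and 6 to 10, 11 and 13 peaks, Pls3, an actin bundling protein gene, from 19, 18 and 22 to 28, 26 and 28, and Focad from 11, 12 and 12 to 17, 14 and 16. These 6 genes were called without any single library. Tspan7, a tetraspanin gene (chromosome X, 10485116 to 10596604), had 19, 19 and 21 and then 33, 27 and 27 peaks (limma adjusted p = 0.0181), but lost its call without infant replicate 1 or 2, and 2210408I21Rik lost it without young adult replicate 3. With 1, 1 and 0 infant and 4, 4 and 7 young adult peaks, 2210408I21Rik reached the average of 1 peak only through the adult libraries, so its call adds no support. In a fit of the 6 infant and young adult libraries alone, 2210408I21Rik, Prickle2, Hpcal1 and Rin2 were not called. Prickle2, Hipk2, Hpcal1 and Rin2, with adjusted p between 0.0216 and 0.047, were lost under 4 to 6 of the 6 omissions. With peaks inside or within 10 kb of the gene alone, Tspan7, Pls3, Cd46 and Rin2 were not called.

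**Figure D4:**
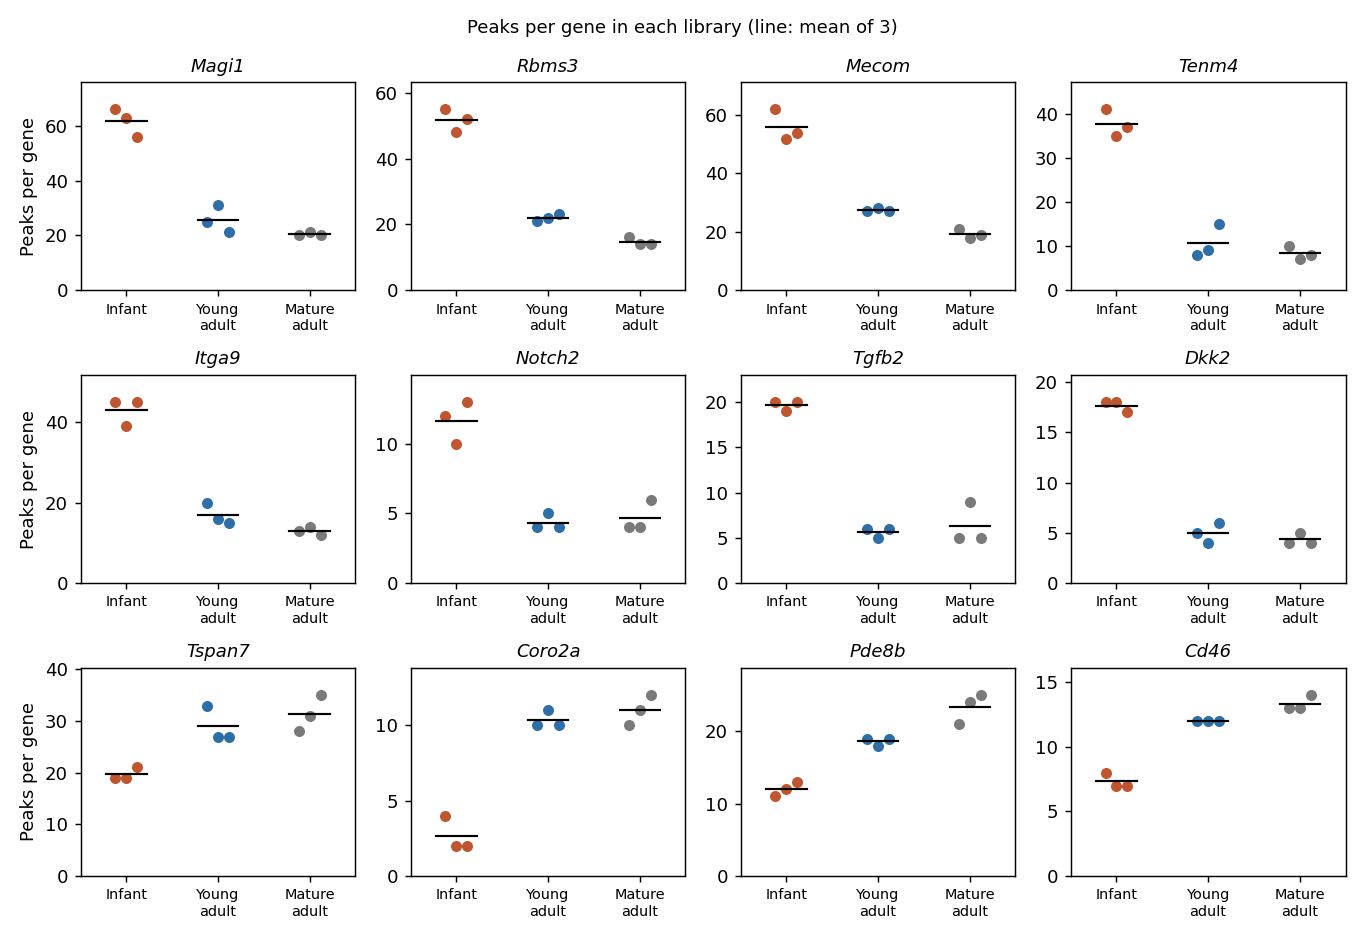
Points give the number of peaks assigned to each of 12 genes in every infant, young adult and mature adult library, and lines the mean of 3 libraries. Magi1, Rbms3, Mecom, Tenm4, Itga9, Notch2, Tgfb2 and Dkk2 fall between infant and young adult, and Tspan7, Coro2a, Pde8b and Cd46 rise, with no overlap between these 2 ages in any of the 12.

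Changes were also counted in fixed windows of 500 kb, which do not depend on gene models. Of 4267 windows, 529 (12.4%) were lower and 45 (1.05%) higher in young adults. The windows with the largest falls lay over Ptprm on chromosome 17 (66500001 to 67000000), with 58, 69 and 51 and then 21, 25 and 18 peaks, and over Rere on chromosome 4, over Col5a1 and Rxra on chromosome 2 and beside Mn1 on chromosome 5. In the window over Ptprm, peaks assigned to that gene fell by 33.7 on average, of a fall by 38 in all. Beside Mn1, a transcription coactivator gene, the window from 111500001 to 112000000 went from 40, 36 and 31 to 7, 12 and 7 peaks although 2.67 peaks of that fall were assigned to Mn1 itself. The largest rise was on chromosome 5 from 17500001 to 18000000, with 43, 52 and 51 and then 67, 62 and 70 peaks (limma adjusted p = 0.0426). It holds Sema3c, a secreted semaphorin gene (19, 26 and 21, then 34, 26 and 35 peaks), and Cd36, a fatty acid transporter gene of capillaries (18, 17 and 24, then 26, 30 and 29), neither of which passed the test by itself (limma adjusted p = 0.218 and 0.165), though both were called higher with lists cut to equal length. Windows at Oxr1 on chromosome 15 (20, 19 and 22, then 29, 24 and 36 peaks) and at Pls3 on chromosome X (21, 20 and 24, then 31, 29 and 31) rose too. A window on chromosome 19 (11000001 to 11500000) rose from 6, 5 and 6 to 13, 14 and 14 peaks and stood at 7, 7 and 6 in mature adults. Its peaks belong to the Ms4a cluster, a family of similar genes whose peaks are uncertain and which includes the B cell gene Ms4a1. Beside it, Cd79a, a part of the B cell receptor, had 0, 0 and 0 peaks in infant, 1, 1 and 0 in young adult and 1, 0 and 0 in mature adult libraries, Ms4a1 had 0, 0 and 1, then 1, 3 and 1, then 0 in each, and the gained promoter of Fcrla, a gene of B cells, was open in no mature adult library. The part of B cells in these results was not tested.

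In the VEGF pathway, 1 of 20 genes of signalling and tip cells was lower and 0 were higher, against 9.26% and 1.13% of all genes (1 and 2, against 4.22% and 6%, with lists cut to equal length). The lower gene was Nrp2, the co-receptor for VEGF-C and class 3 semaphorins, whose peaks numbered 21, 21 and 17 in infants and 9, 10 and 7 in young adults (log2 change -1.14 ± 0.15 as counted and -0.74 ± 0.14 scaled, adjusted p = 0.00415). Kdr, the main signalling receptor for VEGF-A, had 36, 35 and 37 and then 30, 31 and 27 peaks, and Flt1, its decoy receptor, 38, 42 and 36 and then 38, 42 and 37. Numbers at Flt1 overlapped between the ages and those at Kdr did not, and neither was called. In the Notch pathway, by which neighbouring cells divide tip and stalk roles, 3 of 19 genes were lower and 0 higher. The receptor gene Notch2 fell from 12, 10 and 13 to 4, 5 and 4 peaks (limma adjusted p = 0.00415). The target gene Hes1 had 31, 26 and 31 and then 16, 18 and 14 peaks (limma adjusted p = 0.0155), lost its call without infant replicate 1 or 3, and had a log2 change after scaling of 0.0019 when only peaks inside or within 10 kb were counted. Rbpj, the DNA-binding partner of Notch (8, 9 and 9, then 4, 4 and 3), was lost under each of the 6 omissions and turned to 0.069 within 10 kb. With lists cut to equal length 1 Notch gene was lower and 3 were higher, and Notch2 was not called.

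In the Wnt pathway 10 of 40 genes were lower (25%) and 0 higher, against 9.26% and 1.13% of all genes. Its median log2 change after scaling was -0.35, against 0.13 for all genes tested. Dkk2, a secreted Wnt modulator, fell from 18, 18 and 17 to 5, 4 and 6 peaks (limma adjusted p = 0.00074). Ror2 and Ror1, receptors of non-canonical Wnt ligands, had 16, 14 and 9 and then 2, 3 and 4 peaks, and 23, 22 and 22 and then 14, 11 and 14. The 2 ages did not overlap in any of the 3 genes, and Ror1 lost its call when any infant replicate was left out. The remaining called genes were Fzd10, Sfrp1, Wnt5a, Dkk3, Wnt4, Wnt3a and Fzd3, so ligands, antagonists and receptors were all among them. Lists cut to equal length gave 6 lower and 2 higher Wnt genes. In the TGF-beta and BMP pathway 6 of 35 genes were lower and 0 higher. At Tgfb2, a ligand gene (chromosome 1, 186622787 to 186709697), peaks fell from 20, 19 and 20 to 6, 5 and 6, and the gene held 11 of the regions open only in infants. The receptor gene Tgfbr2 fell from 27, 28 and 32 to 17, 17 and 16 (limma adjusted p = 0.0118) and Smad3, which carries the signal to the nucleus, from 28, 22 and 25 to 9, 12 and 6 (limma adjusted p = 0.0112). Tgfbr2 was not called within 10 kb. In these 3 genes every infant library exceeded every young adult library by at least 10 peaks. In the Hippo pathway, which couples growth to cell tension, Tead1, Stk3 and Ankrd1 were lower of 18 genes. Tead1, the DNA-binding partner of Yap, fell from 29, 23 and 25 to 10, 11 and 8 peaks (limma adjusted p = 0.00445). Among axon guidance genes, which also steer vessels, 10 of 51 were lower and 0 higher. Ephb1, an ephrin receptor gene, went from 19, 19 and 16 to 7, 7 and 5 peaks and Sema4d, a semaphorin gene, from 14 in each to 8, 4 and 4. Robo1 (20, 18 and 25, then 7, 6 and 12) was lost under 5 of the 6 omissions. With lists cut to equal length the lower and higher genes numbered 4 and 3 for TGF-beta and BMP, 1 and 0 for Hippo and 7 and 4 for axon guidance. Of all genes 4.22% and 6% were then called, and Stk3, Ankrd1 and Robo1 were not.

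Lists of vessel identity are read against the 9.26% lower and 1.13% higher of all genes, or 4.22% and 6% with lists cut to equal length. The arterial list had 2 of 14 genes lower, Mecom and Gja5. Gja5, the connexin 40 gene, fell from 11, 9 and 10 to 5, 6 and 5 peaks (limma adjusted p = 0.00571). The lymphatic list had 3 of 9 lower, Itga9, Prox1 and Mmrn1. Prox1, the transcription factor that sets lymphatic fate, had 6, 5 and 7 and then 1, 1 and 2 peaks, and Mmrn1 8, 8 and 6 and then 2, 3 and 3, but each was lost under 3 of the 6 omissions. A lower number of peaks at lymphatic genes can come from fewer lymphatic cells in the sort or from fewer open sites per cell, which these lists cannot tell apart. The venous list (12 genes), the general capillary list (14), the list of Tie and sphingosine-1-phosphate genes of vessel stability (14), the junction list (15) and the vasoactive and caveolar list (20) had 0 genes called in either direction by limma on both scales. In the same lists lists cut to equal length gave 0 lower and 2, 5, 3, 2 and 5 higher genes. General capillary genes together held 201, 222 and 207 peaks in infants and 231, 231 and 221 in young adults, and the ages overlapped because young adult replicate 3 lay just below infant replicate 2. Aerocyte genes held 196, 186 and 191 and then 187, 182 and 180, with Rprml called higher of 13 (3 in each, then 4, 5 and 4 peaks, lost under 4 of the 6 omissions), and 0 lower and 6 higher with lists cut to equal length. As a share of all peaks, general capillary genes went from 0.212, 0.247 and 0.233% to 0.340, 0.338 and 0.327%. The share of aerocyte genes went from 0.207, 0.207 and 0.215% to 0.276, 0.266 and 0.266%. Both rose without overlap, but a share also rises where numbers stay equal, since the young adult lists are shorter. Of 25 endothelial transcription factors, 2 were lower and 0 higher, against 0 and 5 with lists cut to equal length, where neither of the 2 was called. Meis2 fell from 28, 28 and 31 to 17, 18 and 13 peaks and Fli1, an ETS factor, from 37, 34 and 30 to 18, 22 and 20 (limma adjusted p = 0.0266 and 0.017). Both lost their call without infant replicate 2, Meis2 also without infant replicate 3 and Fli1 also without infant replicate 1.

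**Figure D5:**
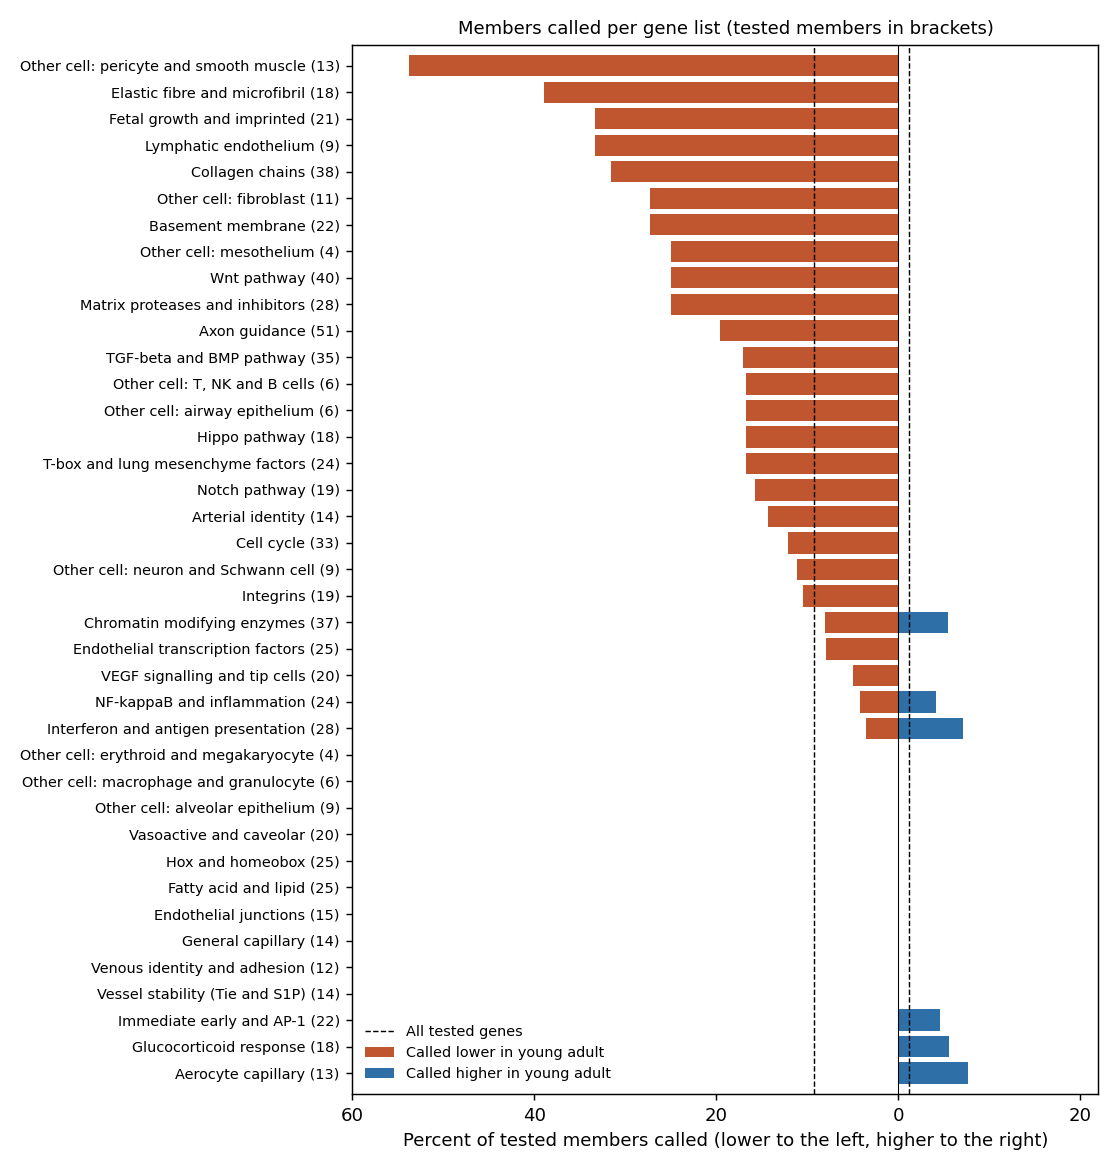
Bars give the percent of tested members of each of the 39 gene lists called lower (to the left) and higher (to the right) in young adults, with the number of tested members in brackets. Dashed lines mark the 9.26% and 1.13% of all genes tested, and the lists of pericyte, elastic fibre, fetal growth, lymphatic and collagen genes reach furthest beyond the line for lower genes.

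Lists of the extracellular matrix are set against the same 9.26% and 1.13%. Of 38 collagen chain genes 12 were lower and 0 higher, with a median log2 change after scaling of -0.61. Col5a1, a chain that controls the width of collagen fibrils (chromosome 2, 27886381 to 28039510), fell from 24, 22 and 21 to 5, 6 and 4 peaks (log2 change -2.07 ± 0.16 as counted and -1.66 ± 0.14 scaled, adjusted p = 0.000531), and Col14a1 from 22, 20 and 22 to 11, 10 and 8 (limma adjusted p = 0.0101). Col25a1 was lost under 5 of the 6 omissions. The chains of collagen IV, which endothelial cells lay down in their own basement membrane, were not called. Col4a1 had 32, 35 and 35 and then 27, 30 and 26 peaks and Col4a2 30, 27 and 29 and then 31, 29 and 28, and both were called higher with lists cut to equal length. Of 22 basement membrane genes 6 were lower and 0 higher, 5 of them laminin chains. Lamb1, the laminin beta 1 chain, kept 0, 1 and 0 of 13, 15 and 15 peaks, Lama4, a chain typical of vessels, went from 18, 19 and 17 to 9, 10 and 9 (limma adjusted p = 0.0103), and Lamc1 from 25, 25 and 22 to 15, 12 and 12, a call lost under 5 of the 6 omissions. Lamb1 reached the average of 1 peak needed for the test only through the infant libraries, so its call adds no support. Of 18 elastic fibre and microfibril genes, which form the elastic network of the alveolar walls, 7 were lower and 0 higher. Fbn1, the main fibrillin, fell from 23, 22 and 19 to 9, 11 and 9 peaks (limma adjusted p = 0.00186), Fbn2, the fibrillin of early life, from 10, 7 and 8 to 2, 3 and 3, and Ltbp2, a microfibril protein gene, from 11 in each to 2, 2 and 3, while Eln itself had 19 in each and then 13, 16 and 12 and was not called. Among 28 matrix proteases and their inhibitors 7 were lower and 0 higher, with Adamts2, which trims procollagen, at 19, 18 and 11 and then 2, 3 and 1 peaks (limma adjusted p = 0.00445). With lists cut to equal length the lower and higher genes numbered 5 and 2 for collagens, 4 and 3 for the basement membrane, 4 and 0 for elastic fibres and 6 and 2 for proteases, and Col14a1, Lama4 and Fbn1 were not called. Lama4 and Fbn2 were not called with peaks inside or within 10 kb alone.

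These matrix genes are also genes of fibroblasts and pericytes, and markers of both cell types moved in the same direction. The 14 fibroblast markers together held 77, 73 and 76 peaks in infants and 42, 39 and 48 in young adults, and the 14 pericyte and smooth muscle markers 70, 65 and 66 and then 30, 31 and 26. Of the testable markers 3 of 11 fibroblast genes (Col1a2, Col1a1 and Col3a1, which are also in the collagen list) and 7 of 13 pericyte genes were lower and 0 were higher. Cspg4, the pericyte proteoglycan NG2, had 9, 8 and 9 and then 3 in each (limma adjusted p = 0.000137) and Postn, periostin, 5, 3 and 6 and then 0 in each (limma adjusted p = 0.00445). With lists cut to equal length 0 members of either list were called. Col3a1 was lost under 5 of the 6 omissions and Des under 4. Start sites lost after infancy included those of 5 of 10 pericyte and smooth muscle markers (Cnn1, Cspg4, Des, Lmod1 and Notch3) against 2.57% of all genes. Summed peaks of alveolar epithelial markers went from 67, 58 and 63 to 46, 43 and 35, those of airway markers from 25, 22 and 20 to 12, 13 and 15, and those of mesothelial markers from 20, 22 and 22 to 13, 14 and 10. Markers of neurons and Schwann cells went from 50, 45 and 40 to 31, 27 and 30, those of erythroid cells and megakaryocytes from 12, 12 and 13 to 8 in each, those of T, NK and B cells from 57, 53 and 54 to 46, 51 and 34 and those of macrophages and granulocytes from 24, 25 and 22 to 25, 19 and 16. These sums are not scaled to the shorter young adult lists. As a share of all peaks, T, NK and B cell markers had 0.060, 0.059 and 0.061% in infants and 0.068, 0.075 and 0.050% in young adults. Shares of macrophage, alveolar epithelial and neuron markers also overlapped between the ages. Those of the other cell types, fibroblasts and pericytes among them, were lower in young adults without overlap. Markers without a peak in any of the 6 libraries numbered 0 of 14 for pericytes and smooth muscle and 0 of 12 for neurons and Schwann cells. They numbered 1 of 14 for fibroblasts (Lum), 1 of 14 for alveolar epithelium (Sftpc) and 2 of 12 for airway epithelium. For mesothelium they were 2 of 8, with Msln, and for T, NK and B cells 3 of 16, with Cd3g. For erythroid cells and megakaryocytes they were 5 of 12, with Hbb-bs, and for macrophages and granulocytes 9 of 18, with Cd68 and Lyz2. The part of other cells in the falls at matrix, Wnt and TGF-beta genes was not tested.

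Of 21 fetal growth and imprinted genes 7 (33.3%) were lower and 0 higher, against 9.26% and 1.13% of all genes (3 and 0 with lists cut to equal length), with a median log2 change after scaling of -0.43. Igf1, the insulin-like growth factor 1 gene, fell from 16, 15 and 17 to 4, 3 and 8 peaks (limma adjusted p = 0.0119), young adult replicate 3 being the highest of its age, and was not called within 10 kb. Dlk1, an imprinted gene of immature cells, fell from 8 in each to 3, 1 and 2. Hmga2, a chromatin protein of growing tissue, had 14, 13 and 16 and then 3, 5 and 3 peaks, and its call was lost under 4 of the 6 omissions. T-box and lung mesenchyme factors had 4 of 24 genes lower and 0 higher, led by Tbx5 with 13, 13 and 11 and then 1, 1 and 2 peaks (limma adjusted p = 0.000399) and none in mature adults. Of 33 cell cycle genes 4 were lower and 0 higher, a share near that of all genes. Cdk1, the kinase that drives mitosis, fell from 7, 9 and 6 to 3, 2 and 2 peaks (limma adjusted p = 0.00635). Mki67, the proliferation marker, had 11, 10 and 12 and then 6, 5 and 5, but was lost under 5 of the 6 omissions, and counting only peaks inside or within 10 kb turned its log2 change to 0.24 and that of Mycn to 0.48. Of 37 genes of chromatin modifying enzymes 3 were lower and 2 higher. Prdm16, a factor of arterial and progenitor cells, fell from 25, 20 and 17 to 8, 10 and 8 peaks while Crebbp, whose product acetylates histones, went from 8, 10 and 6 to 4, 3 and 3. Crebbp was not called with lists cut to equal length. Kdm6b, a demethylase of histone H3 at lysine 27, rose from 4, 4 and 5 to 7, 8 and 6 (limma adjusted p = 0.0168), but lost its call under 3 of the 6 omissions, as did Kat7 (4, 4 and 3, then 5 in each). With lists cut to equal length the lower and higher genes numbered 1 and 1 for T-box and lung mesenchyme factors. They numbered 4 and 2 for the cell cycle and 2 and 6 for chromatin modifying enzymes, against 4.22% and 6% of all genes.

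The 8 list members called higher were Rprml, Kdm6b and Kat7, described above, and Psmb9, H2-D1, Tlr4, Mafk and Tsc22d3. Psmb9, an immunoproteasome subunit, had no peak in infants and 1, 1 and 2 in young adult libraries. It reached the average of 1 peak needed for the test only through the adult libraries, so its call adds no support. With the 6 infant and young adult libraries alone, or with peaks inside or within 10 kb, it had too few peaks to be tested. Of 28 interferon and antigen presentation genes 2 were higher, Psmb9 and H2-D1, and 1, H2-K1, lower, against 1.13% and 9.26% of all genes. H2-K1 and H2-D1 are near-identical class I genes whose peaks are uncertain, and their calls were lost under 4 and 6 of the 6 omissions. Lists cut to equal length gave 7 higher and 0 lower interferon genes, against 6% and 4.22% of all genes. Tlr4, the receptor for bacterial lipopolysaccharide, rose from 3, 2 and 2 to 4, 5 and 6 peaks (limma adjusted p = 0.0243), a call lost under 4 of the 6 omissions, while the chemokine gene Cxcl1 fell from 5, 6 and 4 to 1, 2 and 1 and lost its call without infant replicate 2. Mafk, a small Maf factor, rose from 3 in each to 4, 4 and 5 and stood at 3 in each mature adult library. Tsc22d3, induced by glucocorticoids, had 11, 10 and 10 and then 12, 13 and 14 peaks and was lost under 5 of the 6 omissions. Of 25 fatty acid and lipid genes and 25 Hox and homeobox genes, limma on both scales called 0 in either direction. With lists cut to equal length 5 and 1 were higher, against 6% of all genes. The 39 lists hold 822 members found in the gene table, not all of them tested. Of these, 104 were called lower and 8 higher, against 56 and 77 with lists cut to equal length. Among all genes tested the shares were 9.26% lower and 1.13% higher, against 4.22% and 6% with lists cut to equal length.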

How the data were processed

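The deposited lists give, per the file headers, the chromosome, start and end of each peak, and no score. The unit is a position, and other measures were computed from it. The authors used cutadapt, Bowtie2 and Picard on mm10, according to the submitters' processing notes. For the peak caller and threshold, nothing is given in the sources used here. Between 31.0% and 38.9% of the intervals of a list filled several rows, and each interval was counted once. Between 90.5% and 93.6% of the peaks were assigned to 1 of 21887 protein-coding RefSeq genes of GRCm38.p6. Whether starts count from 0 or 1 is not stated.

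All 9 libraries were fitted by limma 3.58.1 (R 4.3.3) to log2(number + 0.5) in 1 fit with a mean-variance trend, and checked on simulated data. Single values were tested by exact permutation. Other steps used pandas 2.3.3, numpy 2.4.6 and scipy 1.17.1 under Python 3.11.15, with plots by matplotlib 3.10.9. Genes and lists were chosen with earlier results of these data known. Named were the 12 called genes a direction with the largest change in mean number, up to 3 called members a direction of each list (or the member with the most peaks), the 8 widest start-site peaks lost or gained, the 4 windows and the 4 list-member regions a direction with the largest change or width. Other genes are named beside a result. The test of region widths and the start-site class were added after the data had been seen.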

Additional observations from a re-analysis of the deposited data

How the results depend on the processing

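Of 99 named genes called between the ages, 56 kept their call without any single library and 24 under all 20 alternative settings. Over 2388 results of a gene under a setting, 1883 kept direction and call, 452 lost the call, 40 gained it and 13 changed direction or went to 0. The directions that turned, as log2 change after scaling, were those of Hes1 within 10 kb (0.0019), Rbpj inside the gene (0.15) and within 10 kb (0.069), Mki67 within 10 kb (0.24), Mycn inside the gene (0.30) and within 10 kb (0.48), and H2-K1 inside the gene (0.28), within 10 kb (0.33) and by covered kb (0.13), while H2-K1 went to 0.0 with equal numbers of widest peaks. Rbfox3 turned to 0.057 with equal numbers of widest peaks over 6 libraries, to 0.079 with peaks of at least 300 bp and to 0.0013 by covered kb.

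Genes called lower numbered 2528 as counted, 575 with equal numbers of widest peaks (665 over 6 libraries), 627 with a mean of at least 3 peaks and 804 with peaks inside the gene, and between 921 and 1295 without 1 library, against 1338. Genes called higher numbered 3701 after scaling alone, 818 with equal numbers of widest peaks (754 over 6 libraries), 92 with a mean of at least 3 peaks, 98 inside the gene, and between 113 and 131 without 1 library, against 163. List members called lower numbered 56, and higher 77, with equal numbers of widest peaks, a setting that called 4.22% of all genes lower and 6% higher. Regions open in 1 age alone numbered 6642 and 4240 with equal numbers of widest peaks, the young adult ones 943 with peaks of at least 300 bp, and without 1 library between 14933 and 18366 for infant and between 1728 and 2268 for young adult regions. Start sites lost and gained numbered 269 and 36 with equal numbers of widest peaks. Windows of 500 kb numbered 2267 lower as counted, and 465 higher after scaling alone or 364 with equal numbers of widest peaks. Shared regions called narrower numbered 3804 on widths as given and between 0 and 1600 without 1 library, and wider ones 1184 on centred widths and between 0 and 405. The cause of these shifts was not tested. Stricter filters also left fewer genes to test, 6418 with a mean of at least 3 peaks and 11020 with peaks inside the gene.

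Any pairing of the libraries by replicate number was weak. The deviations of same-numbered infant and young adult libraries from their group means correlated at 0.031, 0.048 and 0.087 across genes. Those of differently numbered libraries correlated between -0.067 and 0.044. Each infant library correlated most with the young adult library of its own number. With the replicate number as a block 1193 genes were lower and 100 higher, against 1338 and 163 without it. Depth limits every count, since a list with more reads can hold more and wider peaks, and no read number is given. No group had the 4 libraries needed to look for outlying samples.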
